A study of Mus musculus with 7 samples.

Results

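Potassium channels hold the membrane of the pancreatic β-cell near its resting potential and end each burst of electrical activity. The ATP-sensitive channel (KATP) is assembled from equal numbers of a pore-forming subunit, Kir6.2, encoded by Kcnj11, and a regulatory sulfonylurea receptor, SUR1, encoded by Abcc8. When glucose metabolism raises ATP, the KATP channel closes, the membrane depolarises, voltage-gated calcium channels open and insulin granules are released. Other potassium channels then repolarise the cell or set its background conductance.

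The genes described here are 9 potassium channel genes of the islet, chosen by name, and all 9 were found among the 21899 genes in the count data. They are Kcnj11 and Abcc8 of the KATP channel, the calcium-activated channel genes Kcnma1 and Kcnn3, the tandem-pore channel genes Kcnk16 and Kcnk3, the ether-à-go-go-related genes Kcnh2 and Kcnh6, and Kcnj6, which encodes a G protein-gated inward rectifier. RNA was sequenced from pancreatic islets of second-generation (F2) C57BL/6J males. Their F0 grandmothers received dihydrotestosterone in late pregnancy (the AE line, labelled hyperandrogenism) or vehicle alone (the control line), and the F1 sons, which in the AE line were exposed in utero and received nothing after birth, were bred with wild-type females. All F2 animals were themselves untreated, the islets were picked by hand after collagenase digestion and kept in culture medium, and neither the age of the F2 males nor the number of animals per library is given in the sources used here. The labels list 3 control-F2 and 4 AE-F2 samples, of which replicate 1 of control-F2 and replicate 4 of AE-F2 are described, 1 library each, and the other 5 were not analysed here.

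With 1 library per group the conditions cannot be tested, so no p-value is given and no difference has a replicate check. The libraries held 16285888 and 21278513 estimated counts, so the AE-F2 library has the smaller counting error at a given level. Levels are given as CPM, in which counts are divided by the library size after TMM scaling, and differences as the log2 ratio of the AE-F2 library over the control-F2 library, computed with 0.5 counts added. The interval beside a ratio is a 95% exact Clopper-Pearson interval, which covers counting error only and leaves out the spread between animals. Counting error here means that of independent reads. Genes averaging 10 counts or more over the libraries, 13627 in all, serve as the background. The tissue label was met by the data, since the insulin genes Ins2 and Ins1 had the most counts of the hormone genes examined, and the β-cell transcription factor gene Pdx1 had 3541 counts in the control-F2 sample and 4109 in the AE-F2 sample. In bulk islets, fewer cells of a type and less RNA per cell cannot be told apart.

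Of the 9 genes, 8 were lower in the AE-F2 sample and 1 was higher, against 50.3% of all genes that were lower. The median log2 ratio of the 9 was -0.08, beside a median of -0.00 over all genes. For 4 genes, Kcnn3, Kcnh6, Kcnj11 and Abcc8, the counting interval lay wholly below equality, as it did for 13.7% of all genes. For none of the 9 did it lie above equality, as it did for 13.2% of all genes. A threshold of 0.32 on the log2 scale, which is a level at least 25% higher or at least 20% lower, was used to mark larger differences. By that measure 2 of the 9, Kcnn3 and Kcnh6, were past the threshold downward (6.92% of all genes) and 0 were past it upward (11.3% of all genes). All 9 genes averaged at least 100 counts, a depth at which fewer genes pass such a threshold. Among the 10540 genes of that depth, 3.94% passed the threshold downward, 3.67% passed it upward, 53.8% were lower by any amount and 16.4% had an interval below equality. Over the 3471 genes averaging at least 1000 counts, a level that 6 of the 9 reach, Kcnj11, Abcc8 and Kcnh6 among them, 56.9% were lower and 25.5% had an interval below equality. The direction of the small differences depended on the processing. When the dependence of the ratio on GC content and on transcript length was taken out, 5 of the 9 genes were lower in place of 8, and Kcnh6 was no longer past the threshold. When the 10 most abundant genes were left out of the totals, 7 of the 9 were lower.

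**Figure D1:**
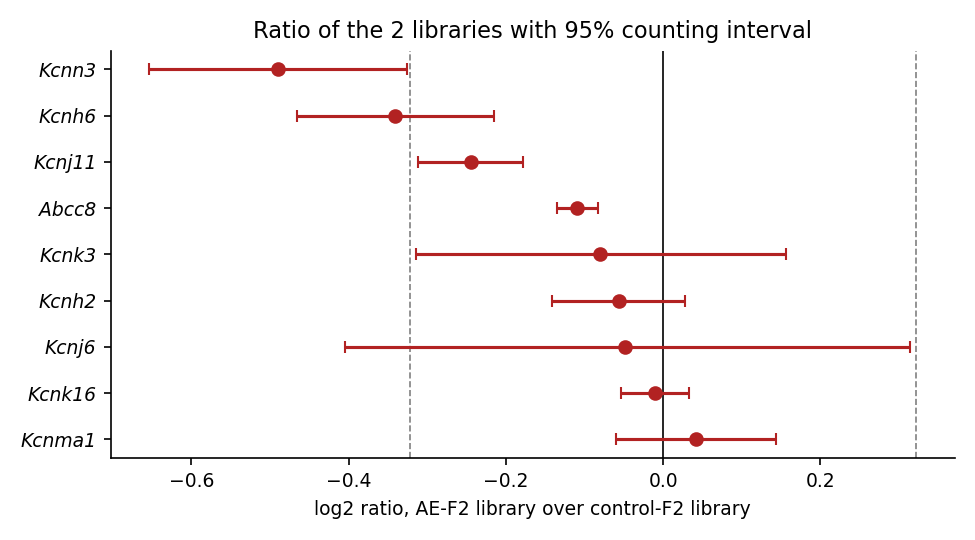
Log2 ratio of the AE-F2 library over the control-F2 library (x axis) for the 9 potassium channel genes (y axis). Points are the ratios of 1 library to 1 library, bars are 95% counting intervals, the solid line is equality and the dashed lines mark the threshold of 0.32. Kcnn3, at -0.49, is farthest to the left, and the bars of Kcnn3, Kcnh6, Kcnj11 and Abcc8 do not reach equality.

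Both subunits of the KATP channel were lower in the AE-F2 sample. Kcnj11 (ENSMUSG00000096146) had 3490 counts in the control-F2 sample and 3842 in the AE-F2 sample, which is 214 and 181 CPM. Its log2 ratio was -0.24 (interval -0.31 to -0.18), a 1.18-fold lower level. Abcc8 (ENSMUSG00000040136) had 21381 counts in the control-F2 sample and 25855 in the AE-F2 sample, or 1312 and 1216 CPM. Its log2 ratio was -0.11 (interval -0.14 to -0.08), and after the correction for GC content and length it was -0.07. Neither gene passed the threshold. The genes are neighbours on the minus strand of chromosome 7 in GENCODE M21 (GRCm38), with Kcnj11 from 46093953 to 46100764 and Abcc8 from 46104523 to 46180033, and their exons do not overlap each other or any other annotated gene.

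The pore subunit was the lower-expressed partner in both libraries. Divided by the length of the exons, Abcc8 stood at 162 CPM per kb in the control-F2 sample and Kcnj11 at 58.2. In the AE-F2 library these levels were 150 for Abcc8 and 49.1 for Kcnj11. The ratio of Abcc8 to Kcnj11 per length was therefore 2.78 in the control-F2 sample (interval 2.69 to 2.89) and 3.06 in the AE-F2 sample (2.96 to 3.16). This change of 0.14 on the log2 scale has an exact counting interval from 0.06 to 0.21, so the 2 subunits differed unequally between the libraries beyond counting error. The size of the ratio rests on the length used, since with the longest transcript of each gene it was 3.95 and 4.34, whereas the change between libraries is the same under any length. The alternative KATP subunits, known mainly from vascular and muscle cells, were scarce. Kcnj8, which encodes Kir6.1, had 10 counts in the control-F2 sample and 22 in the AE-F2 sample. Abcc9, which encodes SUR2, had 131 and 183 counts, and the intervals of both genes included equality.

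**Figure D2:**
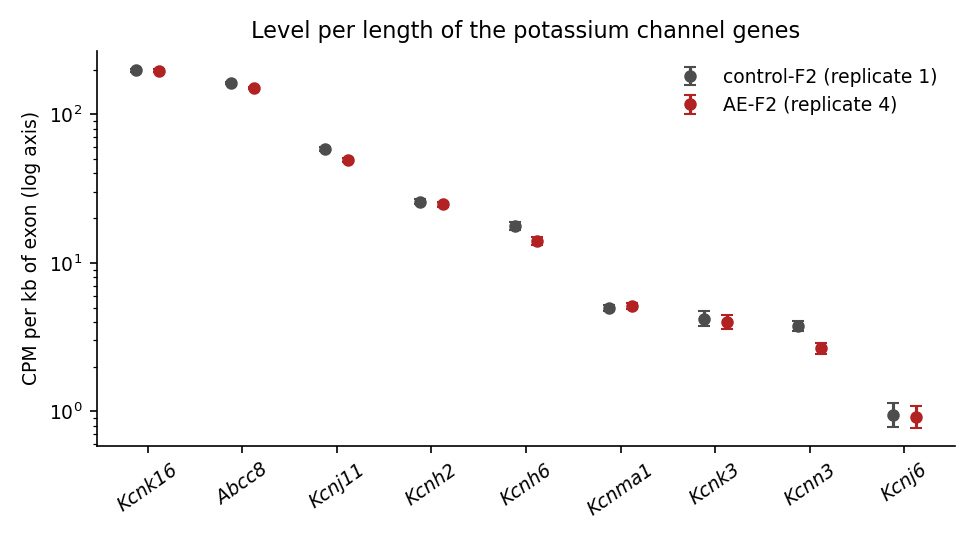
Level of the 9 genes in CPM per kb of exon (y axis, log scale) in the control-F2 sample (grey) and the AE-F2 library (red), ordered by the control-F2 level. Points are single libraries and bars are 95% exact Poisson intervals of the counts. Kcnk16 and Abcc8 are the highest and Kcnj6 the lowest in both libraries.

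The calcium-activated channels differed from each other. Kcnn3 (ENSMUSG00000000794, chromosome 3 from 89520164 to 89675132) encodes the small-conductance channel SK3, which opens when cytosolic calcium rises and helps to repolarise the cell. It had 636 counts in the control-F2 sample and 591 in the AE-F2 sample, although the latter is the deeper of the 2. This corresponds to 39.0 and 27.8 CPM, a 1.40-fold lower level in the AE-F2 sample, and its log2 ratio of -0.49 (interval -0.65 to -0.33) was the lowest of the 9 genes. Kcnma1 (ENSMUSG00000063142, chromosome 14 from 23289431 to 24014491) encodes the large-conductance BK channel, which is opened by calcium and voltage together and shortens action potentials. With 1373 counts in the control-F2 sample and 1843 in the AE-F2 sample, or 84.2 and 86.7 CPM, it was the only one of the 9 above equality. Its log2 ratio was 0.04 with an interval from -0.06 to 0.14, so this depth does not resolve a difference. The accessory β-subunit gene Kcnmb2, which encodes a partner of the BK pore, had a log2 ratio of 0.02 (interval -0.06 to 0.10). An antisense transcript shares 5.98% of the exon bases of Kcnma1, and the library kit did not keep the strand as far as the methods state, so reads there cannot be assigned to either gene with certainty.

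Both ether-à-go-go-related genes were below equality, but only one of them beyond counting error. These channels open as the action potential ends and help to return the cell to rest. Kcnh6 (ENSMUSG00000001901, chromosome 11 from 106008124 to 106034549), which encodes Kv11.2, had 1031 counts in the control-F2 sample and 1062 in the AE-F2 sample. The levels were 63.3 and 49.9 CPM, a 1.27-fold lower level with a log2 ratio of -0.34 (interval -0.47 to -0.22). After the correction for GC content and length, the log2 ratio of Kcnh6 was -0.26, short of the threshold, and its interval remained below equality. Kcnh2 (ENSMUSG00000038319, chromosome 5 from 24319589 to 24351604), which encodes Kv11.1 or hERG, had 2045 and 2565 counts, or 125 and 121 CPM. Its log2 ratio of -0.06 had an interval from -0.14 to 0.03, and after the same correction the ratio was 0.07, of the opposite sign. The 2 intervals of Kcnh6 and Kcnh2 do not overlap, which compares these libraries and not the conditions.

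Kcnk16 and Kcnk3, whose tandem-pore channels conduct a background current at rest, both had an interval that included equality. Kcnk16 (ENSMUSG00000023387, chromosome 14 from 20261376 to 20269199) encodes TALK-1, an islet channel that limits calcium entry. It had 7699 counts in the control-F2 sample and 9973 in the AE-F2 sample, which is 472 and 469 CPM. Its log2 ratio of -0.01 had an interval from -0.05 to 0.03, the narrowest of the genes that included equality. Kcnk3 (ENSMUSG00000049265, chromosome 5 from 30588170 to 30625271) encodes the acid-sensitive channel TASK-1. It had 273 and 337 counts, or 16.7 and 15.9 CPM, with a log2 ratio of -0.08 (interval -0.31 to 0.16).

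Kcnj6 (ENSMUSG00000043301, chromosome 16 from 94748636 to 94997701) encodes GIRK2, an inward rectifier opened by G protein subunits when inhibitory receptors such as those for somatostatin or adrenaline are active. It was the scarcest of the 9 and had 118 counts in the control-F2 sample and 149 in the AE-F2 sample. These are 7.24 and 7.01 CPM. The log2 ratio of -0.05 had the widest interval of the 9, from -0.41 to 0.31, so counting error alone allows a difference past the threshold downward for this gene. Antisense transcripts share 4.98% of the exon bases of Kcnj6 and 5.76% of those of Kcnk3. The deposited counts of all 9 genes were exactly whole in both samples, whereas 8.56% of all values, zeros included, were not in the control-F2 sample and 9.28% were not in the AE-F2 sample.

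Ordered by level per length in the control-F2 sample, Kcnk16 was first with 199 CPM per kb. Abcc8 (162), Kcnj11 (58.2), Kcnh2 (25.9) and Kcnh6 (17.8) followed, each apart from its neighbours beyond counting error. The lower part of the order held Kcnma1 (4.96), Kcnk3 (4.21), Kcnn3 (3.73) and Kcnj6 (0.948). There the counting intervals of Kcnma1 and Kcnk3 overlapped, as did those of Kcnk3 and Kcnn3. The AE-F2 library gave the same order, with Kcnk16 at 197 CPM per kb, Kcnh6 at 14.1 and Kcnn3 at 2.66, and here Kcnn3 lay below Kcnk3 (3.99) without overlap. With the longest transcript as the length, Abcc8 (269 and 249 CPM per kb) stood above Kcnk16 (222 and 221), and Kcnn3 (4.69) stood above Kcnk3 (4.40) in the control-F2 sample but below it in the AE-F2 sample (3.34 and 4.16). The order of both pairs, and whether the libraries share 1 order, thus depends on the gene model.

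The promoters of Kcnn3 and Kcnh6, the 2 genes past the threshold, are shown with that of Kcnk16, the most abundant pore gene and the one nearest to equality. The study also measured DNA methylation, in sperm and at chosen genes in fetal pancreas, adult islets and human blood, which is not analysed here. Its sites were not all at gene starts. In mammals this mark sits mainly on CpG sites, so the sequences show how many of them each start region holds. Each sequence runs 5′ to 3′ on the strand of the gene, from 250 bases before the start of the transcript to 50 bases after it, is taken from RefSeq on GRCm38.p6, and carries its CpG sites in capitals.
Kcnn3, chr3:89519914-89520213, plus strand: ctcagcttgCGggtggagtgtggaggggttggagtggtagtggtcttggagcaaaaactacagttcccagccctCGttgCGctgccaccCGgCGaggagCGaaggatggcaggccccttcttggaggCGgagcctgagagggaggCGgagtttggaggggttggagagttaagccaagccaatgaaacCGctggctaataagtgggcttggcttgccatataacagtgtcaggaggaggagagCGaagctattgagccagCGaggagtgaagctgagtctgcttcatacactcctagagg
Kcnh6, chr11:106007898-106008197, plus strand: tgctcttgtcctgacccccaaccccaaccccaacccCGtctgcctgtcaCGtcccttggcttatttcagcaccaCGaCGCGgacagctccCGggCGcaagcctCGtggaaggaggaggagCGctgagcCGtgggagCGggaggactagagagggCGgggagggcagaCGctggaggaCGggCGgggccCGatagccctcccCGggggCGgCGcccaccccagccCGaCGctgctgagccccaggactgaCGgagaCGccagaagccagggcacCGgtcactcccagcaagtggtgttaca
Kcnk16, chr14:20269220-20269519, minus strand: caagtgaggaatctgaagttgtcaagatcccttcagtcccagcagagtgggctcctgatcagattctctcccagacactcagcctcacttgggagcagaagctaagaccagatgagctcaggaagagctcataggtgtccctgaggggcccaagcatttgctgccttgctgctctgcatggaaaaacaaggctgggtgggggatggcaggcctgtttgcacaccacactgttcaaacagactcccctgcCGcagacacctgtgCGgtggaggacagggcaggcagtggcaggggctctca

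The Kcnn3 promoter holds 11 CpG sites and that of Kcnh6 holds 24, whereas that of Kcnk16 holds 2. Over all 32851 promoters of the same length the median was 7, with quartiles of 3 and 20. At least as many CpG sites as in Kcnn3 were present in 41.4% of promoters, as many as in Kcnh6 in 20.0% and as many as in Kcnk16 in 85.9%. RefSeq promoters were matched for 6 of the 9 genes. That of Kcnma1 held 36 CpG sites, that of Kcnh2 held 19, and the 2 promoters of Kcnj6 held 30 and 9. Those of Kcnma1 and Kcnh2, and the Kcnj6 promoter with 9 sites, lie inside the GENCODE M21 span of the gene and not at its outer end. No relation between the number of CpG sites and the ratio was tested.

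The 9 genes make up most of the potassium channel RNA of the islet. The pool compared was 77 potassium channel pore-subunit genes, including silent subunits such as Kcnf1, which form no channel alone. Of its counts, the 8 pore genes among the 9 held 71.5% in the control-F2 sample (exact interval 70.9 to 72.0) and 71.6% in the AE-F2 sample (71.1 to 72.1). Kcnk16 alone held 33.0% (32.4 to 33.6) in the control-F2 sample and 35.1% (34.5 to 35.6) in the AE-F2 sample. The share of Kcnj11 was 15.0% (14.5 to 15.4) and 13.5% (13.1 to 13.9). Kcnh6 held 4.42% and 3.73%, Kcnn3 held 2.73% and 2.08%, and Kcnma1 held 5.89% and 6.48%. Counts favour long transcripts, and per length of exon Kcnk16 held 50.7% and 53.6% of the pool, Kcnj11 14.9% and 13.3%, Kcnh6 4.55% and 3.82%, Kcnma1 1.27% and 1.39%, and Kcnn3 0.953% and 0.722%, so that Kcnh6 stood above Kcnma1. The whole pool stood at 1431 CPM in the control-F2 sample and 1337 in the AE-F2 sample, a log2 ratio of -0.10 (interval -0.12 to -0.07). The 69 pore genes outside the 9 had a summed log2 ratio of -0.10 (interval -0.15 to -0.06) and the 8 pore genes of -0.09 (-0.12 to -0.06), and the 2 intervals overlap.

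**Figure D3:**
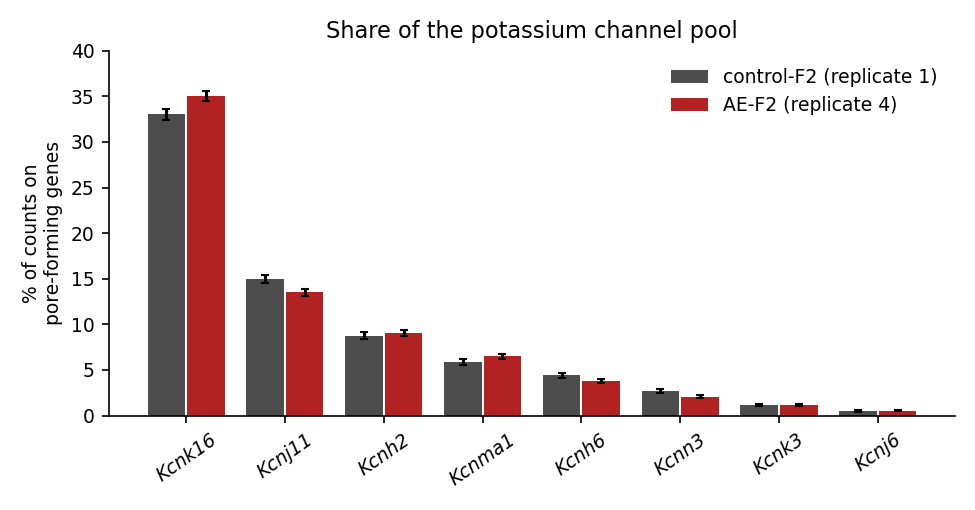
Share of the counts on 77 potassium channel pore-subunit genes, silent ones included (y axis, percent), taken by each of the 8 pore genes (x axis) in the control-F2 sample (grey) and the AE-F2 library (red). Bars are single libraries with 95% exact binomial intervals. Kcnk16 takes 33.0% and 35.1%, and the bars of Kcnj11, Kcnh6 and Kcnn3 are shorter in the AE-F2 sample.

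A list of 93 further potassium channel genes, subunits included, was compared in the same way, of which 57 reached the minimum mean of 10 counts. Of these, 16 passed the threshold upward and 14 passed it downward, where 11.3% and 6.92% of all genes did, with 7 intervals above and 13 below equality (13.2% and 13.7% of all genes) and a median log2 ratio of -0.04. At low counts the threshold is passed more often, by 37.3% of the 3087 background genes under 100 counts upward and by 17.1% downward. Of the 25 that averaged at least 100 counts, 3 were past the threshold upward and 5 downward, 17 were lower by any amount, and 10 had an interval below equality, beside 3.67%, 3.94%, 53.8% and 16.4% of all genes of that depth. Of the 93, 13 had no counts in either library, and 3 counts, taken as the limit that a count of 0 allows, correspond to 0.184 CPM in the control-F2 sample and 0.141 in the AE-F2 sample.

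Relatives of the 9 genes lay on both sides of equality. Of 7 further tandem-pore genes that reached the minimum count, 5 were higher and 2 lower, and 3 passed the threshold upward and 1 downward, the 3 among genes under 100 counts, of which 37.3% pass upward in the background. Kcnk1, which encodes the tandem-pore channel TWIK-1, had 568 and 688 counts and a log2 ratio of -0.11 (interval -0.27 to 0.06). Kcnk12, which encodes the tandem-pore subunit THIK-2, had 199 and 188 counts, a log2 ratio of -0.47 (-0.76 to -0.17). Kcnk6, which encodes TWIK-2, had 13 and 46 counts and a log2 ratio of 1.40 (0.53 to 2.45), and Kcnk5, which encodes TASK-2, had 21 and 30 counts and a log2 ratio of 0.12 (-0.72 to 1.01). The other small-conductance channels pointed in opposite directions, with Kcnn2 (SK2) at -0.54 (interval -0.94 to -0.15) and Kcnn1 (SK1) at 0.40 (-0.03 to 0.84). Kcnh1, of the ether-à-go-go family, was at -0.19 (interval -0.35 to -0.03), and its scarcer relatives Kcnh8, Kcnh3 and Kcnh5 were at 0.19 (-0.22 to 0.61), -0.44 (-0.87 to -0.02) and -0.46 (-1.02 to 0.10). Kcnj12, a strong inward rectifier, had 212 and 219 counts and a log2 ratio of -0.34 (-0.62 to -0.06). Kcnj3, the usual partner of GIRK2, had 72 and 82 counts and an interval that included equality (-0.67 to 0.28).

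Among the voltage-gated channels, the silent subunit gene Kcnf1, whose product modifies other channels and forms none alone, had 390 counts in the control-F2 sample and 352 in the AE-F2 sample. Its log2 ratio was -0.53 (interval -0.74 to -0.32). Kcnd1, an A-type channel gene, was at 0.12 (-0.16 to 0.42).

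**Figure D4:**
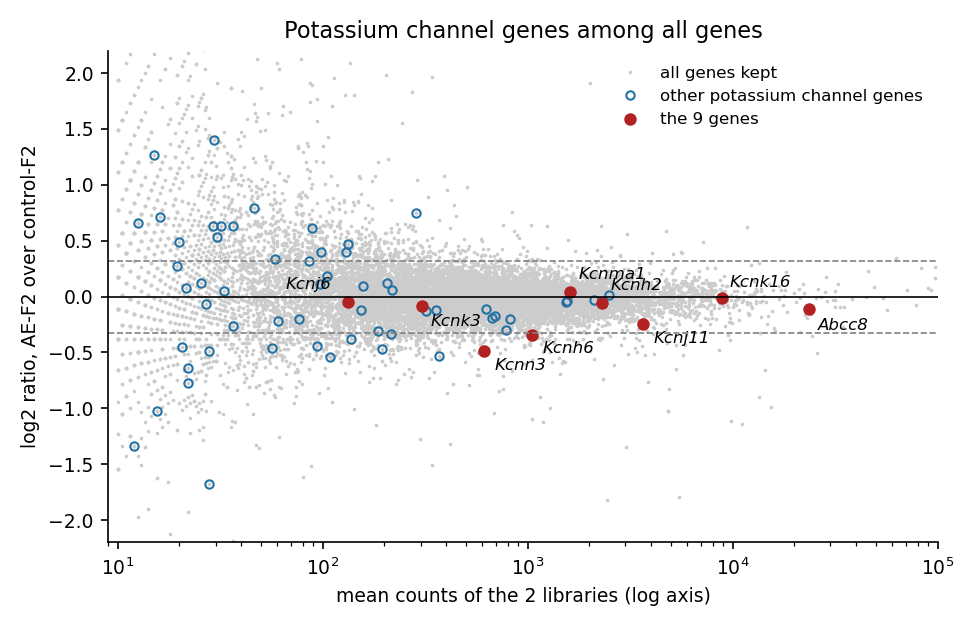
Log2 ratio of the AE-F2 library over the control-F2 library (y axis, cropped so that the most extreme genes are not drawn) against mean counts (x axis, log scale) for all 13627 genes (grey), 57 further potassium channel genes (blue circles) and the 9 genes (red, named). Dashed lines mark the threshold of 0.32. The spread is widest at low counts, and Kcnn3 and Kcnh6 lie below the lower dashed line.

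Genes that act with the KATP channel in glucose-triggered secretion were compared in the same way. Of 16 such partners, 0 were past the threshold in either direction, which 3.67% of genes averaging at least 100 counts passed upward and 3.94% downward, and 3 had an interval above and 4 below equality, where 11.98% and 16.4% of genes of that depth did. Slc2a2, the glucose transporter upstream of the channel, had 15368 and 16495 counts and the lowest log2 ratio, -0.28 (interval -0.31 to -0.25). Trpm5, a calcium-activated cation channel, was at -0.25 (-0.34 to -0.17). Of the calcium channel pores opened by depolarisation, Cacna1c was at -0.15 (-0.26 to -0.03), Cacna1a at -0.12 (-0.22 to -0.01) and Cacna1d at 0.03 (-0.04 to 0.10). The sodium channel gene Scn9a was the highest at 0.25 (0.12 to 0.39), and Atp1b1, which encodes a subunit of the sodium-potassium pump, was at 0.06 (0.01 to 0.12).

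Markers of islet and other cells also differed between the 2 samples. Of 9 β-cell markers, 7 were lower in AE-F2, with a median log2 ratio of -0.10 and a range from -0.26 to 0.23, although their summed level was 202341 CPM in the control-F2 sample and 202645 in the AE-F2 sample because insulin and amylin dominate it. All 6 α-cell markers were higher (17708 and 23867 CPM in sum, of which Gcg, the glucagon gene, had 16034 and 21996, with a median log2 ratio of 0.15 over the 6), and of 4 δ-cell markers 3 were (2993 and 2979 CPM). All 9 acinar markers were lower (2038 and 1539 CPM). Of 9 mesenchymal and smooth muscle markers, cells in which Kcnma1, Kcnj8 and Abcc9 are also known to be expressed, 8 were higher (275 and 326 CPM). Rgs5, a pericyte marker, held most of that sum, at 170 and 180 CPM. The fibroblast markers Col1a1, Col3a1, Col1a2 and Pdgfra were at 1.23, 0.98, 0.95 and 1.67 on the log2 scale. The smooth muscle markers lay on both sides of equality, with Acta2 at -0.31 (-0.60 to -0.03) and Myh11 at 0.11 (-0.11 to 0.33). Immune markers stood at 157 CPM in sum in the control-F2 sample and at 507 in the AE-F2 sample, with all 6 that reached the minimum count above equality. The immunoglobulin gene Ighm accounted for most of that difference, at 3.13 and 253 CPM. On the log2 scale the pan-leukocyte marker Ptprc was at 1.99 (1.61 to 2.40), the myeloid marker Lyz2 at 1.96 (1.67 to 2.27) and the macrophage marker Adgre1 at 0.01 (-0.54 to 0.58). All 7 immediate early genes, which respond to handling and to electrical activity, were lower (3699 and 1874 CPM). Endothelial markers stood at 700 and 694 CPM, duct markers at 251 and 297 (nearly all of it Krt7, with a median log2 ratio of 0.65 over the 4 that reached the minimum count), PP-cell markers at 3189 and 3256, and Schwann cell markers at 13.0 and 14.0. The only marker with 0 counts was 1 immune marker in the control-F2 sample. The part of these differences in the potassium channel values was not tested.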

How the data were processed

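RNA-seq values of F2 male islets were taken from 1 control-F2 and 1 AE-F2 library. The authors enriched mRNA with oligo(dT), filtered the reads and deposited an estimated count for every gene of each library, unscaled. The methods name HISAT2 for alignment, whereas the submitters' processing notes list Bowtie2, RSEM and DESeq2 with no role. The genome build and annotation are not given in the sources used here, and some identifiers are newer than GENCODE M21 (GRCm38), the source of names, lengths and positions. Of 21899 identifiers, 21806 matched a symbol.

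Counts were rounded to whole numbers and scaled with TMM factors (edgeR 4.0.16, R 4.3.3). Genes averaging 10 counts or more were kept. Log2 ratios were computed with a pseudocount of 0.5, and 95% exact intervals with scipy 1.17.1. Reads of PCR copies are not independent molecules, so intervals and limits cover counting error only. With 1 library per group, no model and no p-value could be had. CPM per kb uses the union of a gene's exons. The ratio, its interval and the fold count were tested on simulated libraries. The 9 genes and all lists were chosen with earlier results of these data known. Named genes outside the 9 are up to 4 of the most abundant of each channel family, the 4 largest and 4 smallest ratios among those averaging 100 counts or more, partners averaging at least 100 counts and the 3 most abundant markers of each list. Acta2, Adgre1, Col1a1, Col1a2, Dpp6, Dpp10, Myh11, Pdgfra, Pdx1 and Ptprc fall outside this rule and were named after their values were seen. The named genes are not all printed, and the values of 4 of them are not reported here. Alternatives were other scalings (DESeq2 1.42.0 size factors among them), minimum counts, pseudocount, fold thresholds, thinning, unrounded counts and removal of trends with GC content and transcript length by lowess (statsmodels 0.14.6). Length by longest transcript was added after the data were seen.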

Additional observations from a re-analysis of the deposited data

How the results depend on the processing

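The intervals of Kcnn3, Kcnh6, Kcnj11 and Abcc8 remained below equality, the same 4 genes, under each of 10 alternatives to scaling, minimum count, pseudocount, depth, rounding and sequence trends. Only those to scaling, depth and sequence trends could move these intervals. The interval uses no pseudocount, the minimum count only selects genes, and the counts of these genes were already whole. The log2 ratio ranged from -0.49 to -0.47 for Kcnn3, from -0.34 to -0.26 for Kcnh6, from -0.25 to -0.22 for Kcnj11 and from -0.11 to -0.07 for Abcc8. The median over the 9 genes ranged from -0.10 to -0.03, and 0 of the 9 were past the threshold of 0.32 upward under any alternative. The number of the 9 past it downward, 2, became 1 after correction for GC content and length, where Kcnk16, Kcnk3 and Kcnh2 changed sign without a call, and 0 at a threshold of 1.5-fold and of 2-fold. With totals without the 10 most abundant genes, or with upper-quartile factors, 7 of the 9 were lower by any amount, and 5 were after the correction, in place of 8. The cause was not tested. Of the 66 potassium channel genes that reached the minimum count, out of 102 listed, 16 passed the threshold upward and 16 downward (11.3% and 6.92% of all genes). A minimum mean of 100 counts left 3 and 7 of 34 (3.67% and 3.94%), a threshold of 1.5-fold left 10 and 5 of 66 (6.003% and 2.202%), and one of 2-fold left 2 and 3 (3.16% and 0.660%). Depth limits Kcnj6 and Kcnk3 most. Leaving out a replicate was not run, since each group has 1 library here. No paired analysis was possible because the libraries analysed, control replicate 1 and AE-F2 replicate 4, share no replicate number.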

Other observations

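Subunits that accompany voltage-gated potassium channels without forming a pore were described apart from the 9 genes. Of the 15 listed, 11 averaged at least 10 counts, of which 4 passed the threshold of 0.32 on the log2 scale upward in the AE-F2 sample and 0 passed it downward. Over all genes these shares were 11.3% and 6.92%, and over genes averaging at least 100 counts, as 3 of the 4 do, 3.67% and 3.94%. Kcnip4, a calcium-binding partner of Kv4 channels, had 179 counts in the control-F2 sample and 392 in the AE-F2 sample, a log2 ratio of 0.75 (counting interval 0.49 to 1.01). Kcnip3, of the same family, was at 0.39 (0.03 to 0.78), and Kcnab2, a β-subunit of Kv1 channels, at 0.47 (0.10 to 0.85). The more abundant Kcnip1, with 1364 and 1726 counts, was at -0.04 (-0.15 to 0.06), Kcnip2 at -0.12 (-0.33 to 0.10), and Amigo1, which encodes a membrane protein that accompanies voltage-gated channels, at -0.04 (-0.14 to 0.06). Dpp6 and Dpp10, partners of Kv4 channels that were named after their values were seen, were at -0.30 (-0.45 to -0.16) and -0.17 (-0.32 to -0.01), the 2 subunits with an interval below equality. These are values of 1 library against 1 library, with no replicate check.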
